A study of Rattus norvegicus with 12 samples.

Results

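The lipoprotein lipase system of rat adipose tissue was followed through 9 genes, Lpl, Angptl4, Gpihbp1, Vldlr, Apoc1, Apoc2, Apoe, Sel1l and Pcsk6. The genes were picked with earlier results of these data known. Their probes were taken by name, as all probes to which the platform annotation gives one of these symbols. In all, 10 of the 22523 probes on the chip met this rule, 2 for Angptl4 and 1 for each other gene. All 10 were among the 12196 probes bright enough to be tested. The arrays carry RNA from the epididymal fat pad, which lies along the epididymis, of 12 male Sprague-Dawley rats that were 40 days old. Each rat has its own array, and all 12 arrays are on 1 Illumina RatRef-12 BeadChip. Of these, 6 arrays are labelled as food removed for 6 h (the text of the article gives another length) and 6 as fed ad lib. The food removed arrays lie at chip positions 1 and 3 to 7 and the ad lib arrays at positions 2 and 8 to 12, so position and label nearly coincide.

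Lipoprotein lipase, the product of Lpl, splits triglycerides in circulating lipoproteins at the capillary wall and so supplies fat cells with fatty acids. The enzyme is made in adipocytes, leaves their endoplasmic reticulum with the help of SEL1L, is carried over the endothelium by GPIHBP1, needs apolipoprotein C-II as its cofactor, and is inactivated by ANGPTL4. Adipose tissue is known for turning the activity of the enzyme down in fasting, largely after its mRNA has been made.

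The median raw signal was 105 to 139.6 on the food removed arrays and 91.1 to 137 on the ad lib arrays, and 51.2% to 59.6% of the probes were detected on an array. Of the 9 listed adipocyte markers 8 were measured, and all 8 were detected on every array. The epididymis list had 14 of its 23 markers on the chip. Food removed replicate 3 stood apart, with 13 of the 14 detected and a median log2 signal of 12.85, against 4.68 to 5.96 on the other 11 arrays. Lcn5, a lipocalin of the epididymis, was at 14.49 on this array, 11.17 on food removed replicate 5, 8.96 on food removed replicate 4 and 11.15 on ad lib replicate 6, and at most 6.28 on the other 8 arrays. Within food removed, replicate 3 gave the lowest value of 8 of the 10 member probes. Results that rest on these arrays are given with and without them.

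Of the 10 member probes 4 passed the test, 3 with a lower and 1 with a higher signal on the food removed arrays. The lower ones were both probes of Angptl4 and the probe of Gpihbp1, and the higher one was that of Vldlr. The test was limma on log2 signals with Benjamini-Hochberg adjustment over all 12196 probes at an adjusted p under 0.05, and 2.47% of all tested probes passed it, 1.42% lower and 1.05% higher in food removed. Lpl, Apoc1, Apoc2, Apoe, Sel1l and Pcsk6 did not pass. Because the genes were picked with earlier results of these data known, the number of calls is no test of the members as a set.

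**Figure D1:**
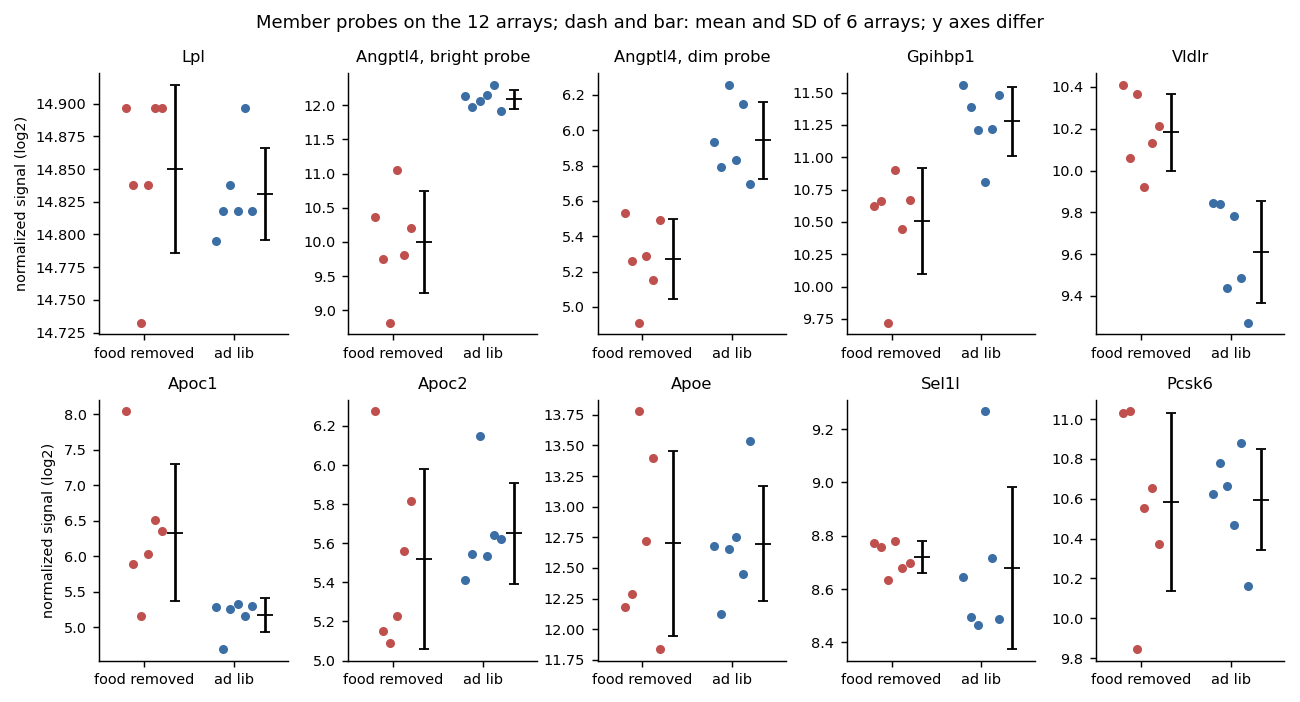
Normalized log2 signal of the 10 member probes on each of 12 arrays, with the mean and SD of the 6 arrays of each label beside the points. The y axes differ between panels. Both Angptl4 panels and the Vldlr panel show labels that do not overlap, and the Lpl panel spans only 14.73 to 14.90.

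Angptl4 encodes the secreted protein that unfolds lipoprotein lipase and takes its activity away. Its bright probe gave log2 signals of 10.36, 9.76, 8.82, 11.06, 9.81 and 10.20 in food removed replicates 1 to 6, against 12.14, 11.97, 12.06, 12.14, 12.29 and 11.91 in ad lib replicates 1 to 6. All food removed arrays lay below all ad lib arrays. The SD was 0.74 in food removed and 0.14 in ad lib (n = 6 each), and the log2 fold change was -2.08 (SE 0.27, limma adjusted p = 0.00111), a fold change of 0.236 with a 95% confidence interval of 0.157 to 0.354. This sign is opposite to that given in the article for the removal of food, as are those of Pck1 and Pdk4 below. The sign of Gpihbp1 below is opposite to that of the article's RT-PCR. Whether the labels of the deposited arrays were exchanged is not settled by the files, so every direction here is one between labels and not shown to be that of fasting. The exact two-sided permutation test of every way to label the arrays gave p = 0.00216, the smallest it can give.

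Before normalization the 6 raw signals of this probe were 553 to 3671 in food removed and 2061 to 7060 in ad lib. The raw values overlapped because food removed replicate 4, at 3671, lay above ad lib replicates 3, 4 and 6, at 3411, 2061 and 3419. Food removed replicate 4 also had the highest median raw signal of all 12 arrays, and ad lib replicate 4 the lowest. The change was called without background correction (-1.99), when arrays were scaled by their medians instead of by quantiles (-2.10), on the authors' own normalized values (-2.14) and with chip position as a covariate (-2.08, adjusted p = 0.0423). Leaving out any 1 array gave -2.30 to -1.85, and the call held in all 12 of these fits.

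Food removed arrays varied more than ad lib arrays in Angptl4. Each array value of the bright probe is a mean over 33 to 44 beads, whose standard error was 2.59% to 4.52% of the signal. On the log2 scale the median bead error was 0.05 in each label, whereas the SD between arrays was 0.74 in food removed and 0.14 in ad lib. The spread within food removed ran from replicate 3 at 8.82, the array with the most epididymis signal, to replicate 4 at 11.06. Without the 4 arrays with Lcn5 over 8 the log2 fold change was -2.04 (adjusted p = 6.04e-05).

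Of the 8 tested adipocyte markers 1 was higher in food removed, Lep, which encodes the hormone leptin, at 8.71 ± 0.47 in food removed and 7.16 ± 0.82 in ad lib (log2 fold change 1.55, adjusted p = 0.0255), and none was lower. The log2 of their summed signal was 16.40 to 16.76 in food removed and 16.67 to 16.93 in ad lib, and their median was 12.95 to 13.68 in food removed and 13.58 to 14.11 in ad lib. Over the deviations of 12 arrays the median and Angptl4 correlated at r = 0.74, and at 0.33 without food removed replicate 3, a description. The part of these markers in the Angptl4 value was not tested.

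The second Angptl4 probe was dim. It gave 5.53, 5.26, 4.91, 5.29, 5.15 and 5.49 in food removed, against 5.94, 5.79, 6.26, 5.83, 6.15 and 5.69 in ad lib. The labels did not overlap here either, which holds for 2.5% of all tested probes. It was detected on 5 food removed and 6 ad lib arrays, and its raw signal was 0.994 to 1.10 times the lowest detected signal of the array in food removed and 1.10 to 1.38 times in ad lib. The log2 fold change was -0.67 (SE 0.13, adjusted p = 0.0163), so that the 2 probes had the same sign. The call was lost in 6 of 24 alternatives, without background correction (-0.27, adjusted p = 0.0510), with array medians as the scale (-0.67, adjusted p = 0.0915), with the replicate number as a block (-0.67, adjusted p = 0.108), with chip position (-0.70, adjusted p = 0.187), without ad lib replicate 5 (-0.63, adjusted p = 0.0526) and without the 4 arrays with Lcn5 over 8 (-0.54, adjusted p = 0.0889). Over the deviations from the label means of the 12 arrays, the 2 probes correlated at r = 0.58, a description without a test.

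Gpihbp1 encodes the protein of capillary endothelial cells that binds the lipase and carries it to the lumen. The article states that the chip lacks this gene, whereas the platform annotation used here names 1 probe for it, and the sequence of that probe was not checked. The log2 signals were 10.62, 10.66, 9.72, 10.90, 10.44 and 10.67 in food removed, against 11.56, 11.39, 11.21, 10.81, 11.22 and 11.48 in ad lib. The labels overlapped through replicate 4 of each, at 10.90 in food removed and 10.81 in ad lib. The means were 10.50 ± 0.41 in food removed and 11.28 ± 0.27 in ad lib (SD, n = 6 each), a log2 fold change of -0.77 (SE 0.19, adjusted p = 0.0440; exact permutation p = 0.00433). By RT-PCR the article found GPIHBP1 mRNA in epididymal fat to rise when food was withdrawn, so this sign too is opposite to the article's. The call on the arrays was lost in 9 of the 12 fits that leave out 1 array, being kept without food removed replicate 3 or 4 or ad lib replicate 4. It was also lost without the 4 arrays with Lcn5 over 8 (-0.59, adjusted p = 0.0989).

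Of 12 listed markers of capillary endothelium, the cells that make GPIHBP1, 8 were tested and 1 was lower in food removed, Cldn5, a tight junction protein. Its log2 fold change was -0.88 (adjusted p = 0.0482), and no marker of the list was called higher. Emcn, another bright marker of the list, was at 11.67 to 12.36 in food removed and 11.75 to 12.13 in ad lib. The median of the measured markers was 8.25 to 9.31 in food removed and 8.89 to 9.87 in ad lib. The log2 of the summed signal of the 9 measured markers was 12.87 to 13.86 in food removed and 13.64 to 14.06 in ad lib. In bulk tissue fewer cells of a type and less RNA per cell cannot be told apart, and the part of these markers in the Gpihbp1 value was not tested.

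Vldlr encodes a receptor that binds apolipoprotein E and is known to hold triglyceride-rich particles near the lipase. It was the single member called higher. Its log2 signals were 10.41, 10.06, 10.37, 9.92, 10.13 and 10.21 in food removed, against 9.84, 9.84, 9.44, 9.78, 9.48 and 9.27 in ad lib. The labels did not overlap, the gap between food removed replicate 4 and ad lib replicate 1 being the narrowest point. Between the labels the log2 fold change was 0.57 (SE 0.13, adjusted p = 0.0345; exact permutation p = 0.00216). The call was lost in 8 of the 12 fits that leave out 1 array, being kept without food removed replicate 4 or ad lib replicate 1, 2 or 4. Within the labels the capillary endothelium median and Vldlr ran against each other (r = -0.62 over the deviations of 12 arrays, a description), and its part in the change was not tested.

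**Figure D2:**
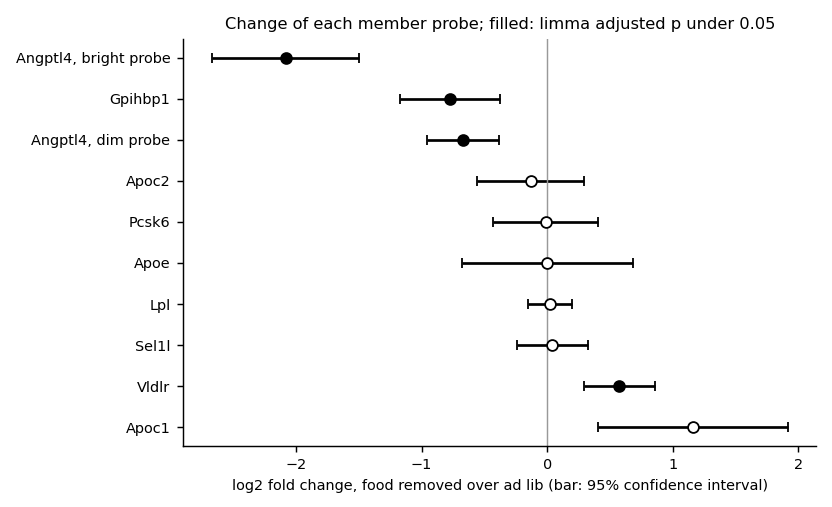
Log2 fold change of each member probe, food removed over ad lib, with its 95% confidence interval from the limma fit over 12 arrays. Filled points passed an adjusted p under 0.05. The bright Angptl4 probe lies at -2.08, Vldlr at 0.57 and Lpl at 0.02, and the interval of Apoc1 does not reach 0 although its adjusted p was 0.108.

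The sequences before the transcription start are shown for Angptl4 and Vldlr, the members with the largest called decrease and with the called increase. RefSeq promoters of build GRCr8 held 7 of the 9 members. The lines give the 250 bases before the start, 5′ to 3′ on the strand of the gene, at chr7:15258682-15258931 (minus strand) for Angptl4 and chr1:234240436-234240685 (plus strand) for Vldlr. Capitals mark TATAAA, the letters of a TATA box, and GGGCGG, those of a GC box, searched on both strands together with AGGTCA, the half-site of nuclear receptors such as the PPARs.
Angptl4: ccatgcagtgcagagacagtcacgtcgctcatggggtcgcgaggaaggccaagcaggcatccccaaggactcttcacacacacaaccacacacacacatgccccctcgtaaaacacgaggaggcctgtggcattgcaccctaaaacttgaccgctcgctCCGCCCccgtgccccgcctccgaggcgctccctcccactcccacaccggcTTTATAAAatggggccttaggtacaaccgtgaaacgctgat
Vldlr: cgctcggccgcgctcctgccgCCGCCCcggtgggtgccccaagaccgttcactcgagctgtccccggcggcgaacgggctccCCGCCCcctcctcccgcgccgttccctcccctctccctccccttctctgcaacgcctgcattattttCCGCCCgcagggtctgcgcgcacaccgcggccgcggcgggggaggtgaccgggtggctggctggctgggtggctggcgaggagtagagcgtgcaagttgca

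Angptl4 had a match to the TATA box on each strand, overlapping and beginning 41 and 39 bases before the start, and 1 GC box. Vldlr had 3 GC boxes and no match to TATAAA. In windows of the same length, TATAAA occurred in 12.9%, GGGCGG in 30.5% and AGGTCA in 14.1% of 33469 promoters, and neither printed window held AGGTCA. These are matches of letters, and binding was not measured.

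Lpl itself showed no change that the arrays could resolve. Its log2 signals were 14.90, 14.84, 14.73, 14.84, 14.90 and 14.90 in food removed, against 14.80, 14.82, 14.84, 14.82, 14.90 and 14.82 in ad lib. The labels overlapped throughout. For Lpl the log2 fold change was 0.02 (adjusted p = 0.942), with a 95% confidence interval of -0.16 to 0.20. The raw signals were 28145 to 33672 in food removed and 26123 to 30572 in ad lib.

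The Lpl probe sat at the top of the brightness scale. It was ranked 2 to 10 of 22523 probes on the food removed arrays and 2 to 5 on the ad lib arrays, and its raw signal was 82.4% to 96.2% of that of the brightest probe of the same array. Quantile normalization gives every array the same value at the same rank, so Lpl took only 5 distinct log2 values over 12 arrays. After normalization rank 2 has the value 14.90 and rank 10 the value 14.73 on every array. With a median shift in its place the log2 fold change was 0.06, and on the authors' normalized values it was -0.035, neither called. The deposited tables carry no saturation flag, and how far the signal of this probe follows the amount of RNA was not tested.

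**Figure D3:**
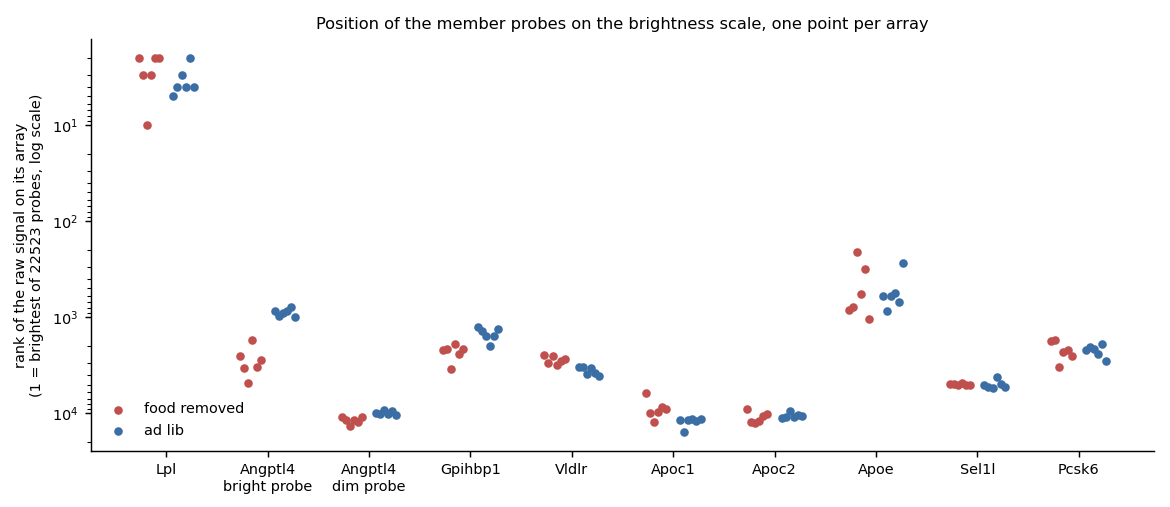
Rank of the raw signal of each member probe among the 22523 probes of its array, on a log axis with the brightest at the top, 1 point per array. Lpl occupies ranks 2 to 10, Apoe ranks 210 to 1047, and the dim Angptl4 probe, Apoc1 and Apoc2 are the dimmest of the plot. Ranks place a probe on the scale of its array and do not compare amounts of RNA between genes.

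Of the apolipoprotein probes none passed. Apoc2, the cofactor of the lipase, and Apoc1, an inhibitor of lipoprotein uptake, were both near background, at 0.985 to 1.36 (Apoc2) and 1.08 to 2.88 (Apoc1) times the lowest detected signal in food removed, and at 1.04 to 1.22 (Apoc2) and 0.860 to 1.08 (Apoc1) in ad lib. Apoc2 gave a log2 fold change of -0.13 (95% confidence interval -0.56 to 0.30).

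Apoc1 gave 8.04, 5.89, 5.16, 6.03, 6.52 and 6.36 in food removed, against 5.29, 4.70, 5.26, 5.33, 5.17 and 5.31 in ad lib, and was detected on 6 food removed and 4 ad lib arrays. Replicate 1 of food removed was the highest and replicate 3 lay within the ad lib range. The log2 fold change was 1.16 (95% confidence interval 0.40 to 1.91), but the adjusted p was 0.108. Without food removed replicate 3 it was 1.39 (adjusted p = 0.0349), and without food removed replicate 1 it was 0.82 (adjusted p = 0.0929).

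Apoe, the apolipoprotein that receptors of the Vldlr kind bind, varied widely within both labels. It gave 12.18, 12.29, 13.78, 12.72, 13.39 and 11.84 in food removed, against 12.68, 12.12, 12.66, 12.76, 12.45 and 13.53 in ad lib. The 3 highest arrays were food removed replicates 3 and 5 and ad lib replicate 6. For Apoe the log2 fold change was 0.00 (95% confidence interval -0.68 to 0.68, adjusted p = 1.00), and without the 4 arrays with Lcn5 over 8 it was -0.44 (adjusted p = 0.248).

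The same 3 arrays were highest in Krt8, a keratin of epithelia, at 12.71, 11.83 and 12.03, against 9.37 to 10.06 on the other 9. Msln, the mesothelial surface protein, was lowest on food removed replicate 3, at 10.16. Reln, the ligand that shares a receptor with Apoe, followed Apoe most closely of all named probes (r = 0.96 over the deviations of 12 arrays) and was at 9.67 and 8.81 on food removed replicates 3 and 5 and at 9.19 on ad lib replicate 6. These arrays share Lcn5. Krt8 and Msln were also the 2 measured markers of the 5 in the mesothelium list, so its median lies midway between them. On food removed replicate 3, the array highest in Apoe, Krt8 was at its highest and Msln at its lowest. A correlation of Apoe with this median therefore does not hold for both markers alike, and Krt8 is not particular to mesothelium. Over the deviations of 12 arrays, a description, Apoe correlated at r = 0.82 with the mesothelium median and at 0.62 with the epididymis median. Without food removed replicate 3 these were 0.82 and 0.22. The part of epididymal or mesothelial tissue in the Apoe values was not tested. Of 13 listed macrophage markers, cells known to make Apoe, 10 were tested and none passed. Their median and Apoe correlated at r = -0.53, and at -0.30 without food removed replicate 3.

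**Figure D4:**
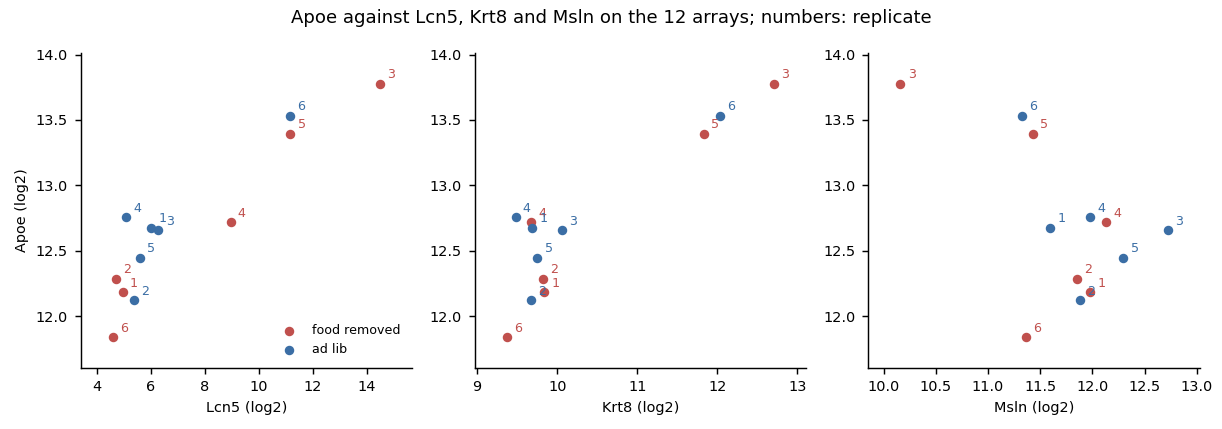
Log2 signal of Apoe against that of Lcn5, Krt8 and Msln on the 12 arrays, food removed in red and ad lib in blue, with the replicate number beside each point. Food removed replicates 3 and 5 and ad lib replicate 6 are highest in Apoe and in Krt8 and are the 3 highest in Lcn5.

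Sel1l, an adaptor of degradation in the endoplasmic reticulum that the lipase needs to leave that compartment, gave a log2 fold change of 0.04 (95% confidence interval -0.24 to 0.33). Its 6 food removed values ran from 8.64 to 8.78, and its ad lib values from 8.47 to 8.72 with replicate 4 apart at 9.27. Pcsk6, a proprotein convertase able to cleave the lipase, gave -0.01 (-0.43 to 0.41). Its values were 9.85 to 11.04 in food removed and 10.16 to 10.88 in ad lib, and the lowest was again food removed replicate 3.

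Angptl4 was next set against each other member probe within a label, in 18 relations over 6 arrays each. The smallest exact p that 6 arrays can give is 0.00278. Over 18 relations this adjusts to 0.05, so no relation could pass on its own, however strong. None passed an adjusted p under 0.05, which therefore does not show that relations are absent, and 2 had an unadjusted exact p below that level. Gpihbp1 followed Angptl4 among the food removed arrays (Pearson r = 0.91, exact permutation p = 0.0306, adjusted p = 0.35; Spearman rho = 0.71, exact p = 0.136, adjusted p = 0.613). Without the 2 arrays farthest from the median of Angptl4, replicates 3 and 4, r was 0.38 over the 4 arrays left. The relation is thus not shown without those 2 arrays. An r over 4 arrays is unstable, and the same omission moved that of Vldlr in food removed from -0.53 to 0.94. Among the ad lib arrays r was -0.39 (exact p = 0.456, adjusted p = 0.547), and -0.32 without the 2 farthest. Their rho was -0.43 (exact p = 0.419, adjusted p = 0.686). The sign turned when arrays were scaled by their medians, with r = 0.83 in ad lib (exact p = 0.0361, adjusted p = 0.1625).

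Sel1l was the other probe with a low unadjusted p. In food removed it gave r = 0.82 (exact p = 0.0389, adjusted p = 0.35; rho = 0.83, exact p = 0.0583, adjusted p = 0.613), and r = 0.33 without replicates 3 and 4. Lpl gave r = 0.61 in food removed and 0.61 in ad lib (exact p = 0.233 and 0.217, adjusted p = 0.505 for both; rho = 0.46 and 0.33, exact p = 0.367 and 0.583, adjusted p = 0.686 and 0.808). Without the 2 farthest arrays of each label these were 0.62 and -0.40. The sign of the Lpl relation depended on the scaling, with r = -0.02 in food removed and -0.75 in ad lib when arrays were scaled by their medians, and 0.88 and 0.21 on the authors' values. In the main normalization the other relations, of the dim Angptl4 probe, Vldlr, Apoc1, Apoc2, Apoe and Pcsk6, had adjusted p of at least 0.505. Signs turned with median scaling among these too, as for Vldlr in food removed (r = -0.53, and 0.57 with median scaling).

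Over the deviations of all 12 arrays from their label means, given without a test, Gpihbp1 and Angptl4 correlated at 0.71, and at -0.14 without the 4 arrays with Lcn5 over 8. For Lpl the value was 0.58 with all arrays and 0.71 without those 4, and for the dim Angptl4 probe it was 0.58 with all arrays and 0.56 without those 4.

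**Figure D5:**
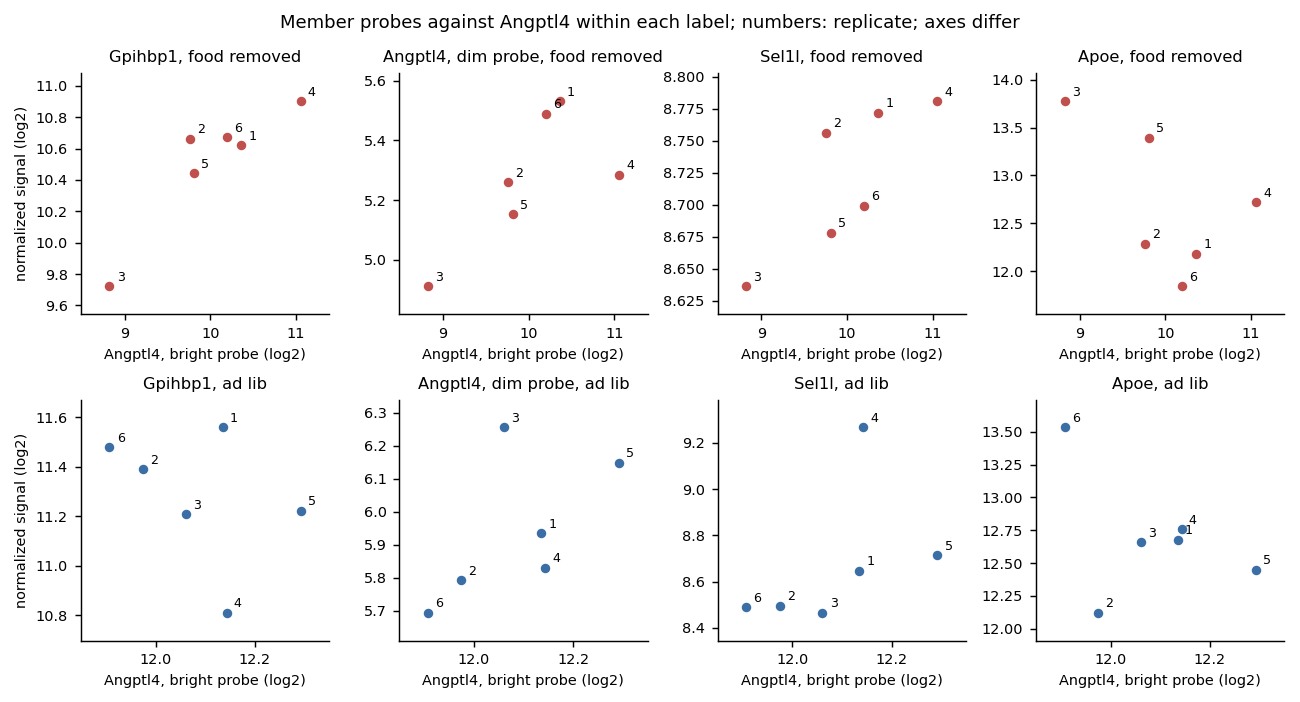
Log2 signal of Gpihbp1, the dim Angptl4 probe, Sel1l and Apoe against the bright Angptl4 probe, for the 6 food removed arrays (upper row) and the 6 ad lib arrays (lower row), with the replicate number beside each point and axes that differ. In the upper left panel replicates 3 and 4 form the ends of the relation of Gpihbp1 with Angptl4, and r was 0.91 with them and 0.38 without.

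The genes most like a member in these deviations were taken as the 5 named probes with the highest r of all tested probes, so high values are what the choice gives. For Angptl4 these were Ctf1 (r = 0.97), Exosc3 (0.96), Nnat (0.96), Pck1 (0.95) and Heph (0.94). In the food removed arrays alone they had r of 0.97 to 0.99, and in the ad lib arrays alone -0.19 to 0.87. Pck1, the phosphoenolpyruvate carboxykinase of glyceride-glycerol synthesis, differed between the labels, again with a sign opposite to the article's, at 12.76 ± 0.95 in food removed and 14.61 ± 0.09 in ad lib (log2 fold change -1.85, adjusted p = 0.0102). The other 4 did not pass.

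For Gpihbp1 the nearest were mrpl11, Il17rb, Inka2, Gng11 and Dipk1a (r = 0.93 to 0.96), and for Vldlr they were Tmx1, Ufsp2, Aff4, Uspl1 and Yars2 (r = 0.87 to 0.93). For Apoe they were Reln, Pgf, Fbxl22, Cnn1 and Nedd9 (r = 0.95 to 0.96). None of these 15 genes passed the test between the labels.

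Related genes outside the members were counted in 8 lists, with 1 probe per gene, beside 1.56% lower and 1.01% higher among all 8583 tested genes, whose median log2 fold change was -0.01. Of the genes that handle the lipase or its products, 12 were tested and none passed (median -0.15). Nearest to the threshold were Lipe, hormone-sensitive lipase (-0.53, adjusted p = 0.108), and Pnpla2, adipose triglyceride lipase (-0.40, adjusted p = 0.134). Angptl2 was the only other tested gene of the angiopoietin-like family (-0.17, adjusted p = 0.691).

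Around Vldlr, Sel1l and Pcsk6 the counts were also 0. Of 11 tested lipoprotein receptors and their adaptors none passed (median 0.03), with Dab2, an endocytic adaptor, at 0.35 (adjusted p = 0.402) and Lrpap1, a receptor chaperone, at -0.21 (adjusted p = 0.439). Of 18 tested genes of endoplasmic reticulum degradation and folding none passed (median -0.02), with Faf2 at -0.27 (adjusted p = 0.314) and Syvn1, the ligase that works with SEL1L, at -0.32 (adjusted p = 0.342). Of the convertases 3 were tested, Mbtps1, Pcsk4 and Pcsk7, at 0.01 to 0.05, and the 2 with the smallest p, Mbtps1 and Pcsk4, had adjusted p of 0.897 and 0.966.

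Known targets of the PPARs, nuclear receptors that act on Angptl4, held most of the calls. Of 21 tested 6 were lower and none higher in food removed (median -0.29). The lists were chosen with earlier results of these data known, so this count is no test of the set. Pdk4, which closes off pyruvate oxidation, was at 6.83 ± 0.60 in food removed and 9.78 ± 0.46 in ad lib (log2 fold change -2.95, adjusted p = 0.000236), a sign also opposite to the article's. Fabp3, a fatty acid carrier (-1.23), Plin5, a lipid droplet protein (-0.87), Slc25a20, the carnitine carrier (-0.82), and Hadha (-0.71) and Ech1 (-0.63) of fatty acid oxidation were the other 5, with adjusted p of 0.00727 to 0.0480.

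Of 7 tested transcription factors known to act on Angptl4 1 was lower, Rxrg, the gamma partner of the PPARs (11.03 ± 0.52 in food removed and 12.58 ± 0.30 in ad lib, log2 fold change -1.54, adjusted p = 0.00278). Next came Rxrb at -0.27 (adjusted p = 0.303), and Pparg itself gave -0.28 (adjusted p = 0.537). Of 9 tested apolipoprotein and lipid efflux genes beside the members 1 was lower, the sterol exporter Abcg1 (-1.28, adjusted p = 0.00440), and Apoh gave 1.36 (adjusted p = 0.216).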

How the data were processed

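Total RNA of 12 rats was measured on 1 chip, and samples were grouped by their labels. The authors deposited raw signal intensities per probe with a detection p-value, the standard error over beads and the number of beads, and a table of normalized intensities. Per the article, the authors normalized by cubic spline in Illumina's own software. The processing notes of the submitters name GenomeStudio (version not given in the sources used here).

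The raw intensities were background-corrected, quantile-normalized and log2-transformed by limma's neqc (limma 3.58.1, R 4.3.3, offset 16). A probe was tested if its detection p-value was under 0.05 on 6 or more arrays, by lmFit followed by eBayes, and p-values were two-sided and adjusted over all tested probes by the Benjamini-Hochberg method. The fit and the correlation test were first tested on simulated data. Quantile normalization removes overall brightness differences between arrays and compresses the top of the scale, and background correction widens the differences of dim probes. Single values were compared with an exact permutation test, and correlations with exact pairings (scipy 1.17.1, Python 3.11.15). Precision is limited by the number of arrays. Whether the rats were handled on separate days is not given, so p-values measure the spread between these arrays.

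Probe names come from the platform annotation, which gives 1 symbol to 13793 probes, several to 0 and none to 8730, and the symbols of all 9 members were found in the gene table of GRCr8. A listed gene was represented by its brightest probe. Named are every member probe, of each list every called gene or the 2 with the smallest p where fewer than 2 were called (Pparg, Pcsk7 and the marker genes were added after their values were seen), and for Angptl4, Gpihbp1, Vldlr and Apoe the 5 named probes whose deviations from the label means correlated most. The members and lists were chosen with earlier results of these data known. The alternatives changed the background correction (none), the scaling (array medians), the offset (50), the start values (the authors' normalized ones), the filter (none, or stricter), the moderation (trend and robust), the weights, the test (the methods' t-test), and the model (replicate block, or chip position). Arrays were also left out, and the omission of the 4 arrays with Lcn5 over 8 was chosen after seeing the data.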

Additional observations from a re-analysis of the deposited data

Results flagged for a closer look

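Each of the 10 member probes was checked in each label for an extreme array, on normalized values. In 4 cases the most extreme of the 6 arrays of a label lay farther from its neighbour than Dixon's 95% limit allows. Chance alone does this in about 1 of 20 groups. The share over all tested probes was not counted, so 4 is not shown to be unusual for this chip. Lpl was low on food removed replicate 3 (14.73), the array with the most epididymis signal. Quantile normalization fixes this value by rank 10, so the flag marks a shift in rank. The raw signal there was 28145, beside 29075 on food removed replicate 6, and above the 26123 and 26376 of ad lib replicates 4 and 6. Among the ad lib arrays, Apoc1 was low on replicate 2 (4.70), where it was not detected, Apoc2 was high on replicate 3 (6.15), and Sel1l was high on replicate 4 (9.27), the array with the lowest median raw signal.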

How the results depend on the processing

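The call of the bright Angptl4 probe held in all 25 alternatives run. Against 301 called probes, 4 of them members, and 8 called list genes, a median shift gave 103, 1 and 4, chip position as a covariate 32, 1 and 1, array weights 840 probes, the methods' t-test 2 members, and leaving out the 4 arrays with Lcn5 over 8 gave 1 member. Leaving out 1 array gave 158 to 491 probes, 1 to 4 members and 6 to 9 list genes. No pairing of the rats by replicate number showed (0 of 6 food removed arrays correlated best with their own number, r = -0.41 to 0.13). This check cannot exclude a pairing. With the replicate number as a block 178 probes, 1 member and 5 list genes were called. Gpihbp1 (-0.77), Vldlr (0.57) and the dim Angptl4 probe were then no longer called.

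Gpihbp1 lost its call when scaled by array medians (-0.81, adjusted p = 0.315), from the authors' values (-0.80), with no filter and with the methods' t-test (-0.77 in both), with chip position (-0.86) and without the arrays with Lcn5 over 8 (-0.59), and leaving out 1 array gave -0.87 to -0.62. Vldlr lost it with a median shift (0.55, adjusted p = 0.308), the methods' t-test (0.57), chip position (0.38) and without the arrays with Lcn5 over 8 (0.56), and leaving out 1 array gave 0.51 to 0.63. Apoc1 gained a call with array weights (1.27) and without the arrays with a high epididymis median (1.49), and leaving out 1 array gave 0.82 to 1.39. The causes were not tested.

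Uncalled values near 0 changed sign. Apoe gave -0.046 when scaled by array medians, -0.0091 from the authors' values, -0.21 with array weights, -0.28 without the arrays with a high epididymis median, -0.44 without those with Lcn5 over 8 and -0.22 to 0.17 leaving out 1 array. Pcsk6 gave 0.039, 0.18 and 0.14 with array weights and without these sets of arrays, and -0.10 to 0.14 leaving out 1 array. Apoc2 gave 0.050 and 0.093 without these sets, Lpl -0.035 from the authors' values, and Sel1l -0.0022 to 0.16 leaving out 1 array. Gpihbp1 and Angptl4 in ad lib correlated at 0.83 with a median shift. The number of called relations of Angptl4 was 0 in the 4 normalizations run, but no relation could pass on its own in any of them. With a median shift Pcsk6 in ad lib reached r = 0.96 at the smallest exact p of 0.00278, and its adjusted p was 0.05. Signals near background limit the dim Angptl4 probe, Apoc1 and Apoc2.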
